A study of Homo sapiens with 18 samples.

Results

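Gemcitabine-resistant pancreatic cancer cells depleted of STIM1 were compared with their parental cells under vehicle, a pair of groups in which the mRNA of STIM1 stood at similar levels. The comparison used 6 of the 18 RNA-sequencing libraries of the series, 3 labelled GemR siSTIM1 and 3 labelled Par siCont, and its members were chosen by their labelled cells, siRNA and treatment. Par is L3.6pl, a human pancreatic ductal adenocarcinoma cell line, and GemR is its gemcitabine-resistant derivative, which per the labels was kept in 64 nM gemcitabine. The siRNA was a control (siCont) in Par and was directed against STIM1 (siSTIM1) in GemR, in each case for 48 h, and both groups had been given DMSO, the vehicle, for the last 3 h. Of the other 12 libraries, 3 were GemR siCont with vehicle, which are set beside the comparison. The other 9 had received 500 nM thapsigargin. They entered only the estimate of the spread between replicates and the filter on the mean count that chose the tested genes. GemR is a single derivative, only GemR is labelled as kept in the drug, and the groups compared also differed in their siRNA. Resistance, exposure to gemcitabine and the siRNA therefore cannot be told apart within the comparison. Par cells with siSTIM1 were not analysed here.

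STIM1 is the calcium sensor of the endoplasmic reticulum (ER): when the calcium store empties, STIM1 gathers beneath the plasma membrane and opens ORAI channels, through which calcium enters and, by way of calcineurin, activates NFAT transcription factors. SERCA pumps then refill the store. Gemcitabine is a deoxycytidine analog that enters cells through nucleoside transporters, is phosphorylated by DCK, and inhibits DNA synthesis and ribonucleotide reductase, whose large subunit is RRM1. STIM1 and RRM1 are neighbours on the short arm of chromosome 11.

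Reads recovered from the deposited values came to 12861788, 8922439 and 13455277 in Par and to 10861201, 12104283 and 12448616 in GemR siSTIM1. Values are normalised counts, that is, reads per gene divided by a size factor for each library. They are not scaled by gene length, so levels are compared between groups and not between genes. A log2 fold change is GemR siSTIM1 minus Par siCont on the scale of log2(normalised count + 1), with the standard error of limma's fit after ±, and a gene was called where limma's Benjamini-Hochberg adjusted p was under 0.05. A mean normalised count is given with its SD over 3 libraries, and every adjusted p comes from limma. Where groups are said not to overlap, this describes the values of the named gene. The share of all tested genes without overlap is not given, so lack of overlap is no result beyond the log2 fold change. Epithelial identity markers of the pancreatic duct summed to between 102734 and 106970 in Par and between 78261 and 81103 in GemR siSTIM1. Across 12419 genes the log2 fold change had a Spearman correlation of 0.16 with transcript length, and the deviations of the 6 libraries from their group means had correlations with length between -0.34 and 0.30. The deviations of GemR siCont replicates 1, 2 and 3 correlated with length at -0.58, 0.40 and 0.53, and replicate 1 stood apart from the others of its group (Pearson correlation of log2 values 0.984 and 0.980, against 0.993 between replicates 2 and 3). Differences that rest on GemR siCont are therefore also given without replicate 1 where counts of lists are named. Between siSTIM1 and siCont the log2 fold change had a correlation of 0.33 with length. A fit with a term for transcript length gave 8265 calls. That term came from deviations within groups, so it could change the estimated spread but no log2 fold change. The part of transcript length in the results was not tested. The labels number the replicates without saying whether they came from separate cultures, so the p-values measure the spread between these libraries.

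The STIM1 transcript was close to the parental level in the depleted cells. Its normalised counts were 444, 447 and 481 in Par and 390.3, 356 and 401 in GemR siSTIM1, against 4976, 6294 and 6401 in GemR siCont. The values of the depleted cells lay just under those of Par without overlap, and both sets lay far below GemR siCont. The log2 fold change was -0.26 ± 0.10, which is given as a description because the siRNA of the depleted cells was directed against STIM1. RRM1 stood apart in the same libraries: it was at 3011, 2868 and 3059.5 in Par and at 59323, 58788 and 55241 in GemR siSTIM1. Every depleted library thus held far more RRM1 mRNA than every parental library, and the difference was 4.28 ± 0.06 (19.4-fold, adjusted p = 1.44e-20). In GemR siCont RRM1 was at 55344, 50841 and 53625.

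With STIM1 mRNA near the parental level, the other genes of calcium entry and storage were not all at parental levels. Of 32 genes listed for this machinery, 30 were tested, of which 9 rose (30.0%) and 11 fell (36.7%), STIM1 being among the latter. Over all 13096 tested genes, 3163 (24.2%) rose and 3438 (26.3%) fell, so that 6601 genes (50.4%) were called. The shares given in parentheses for later lists are to be read beside these. The list's median log2 fold change was -0.01, as was that of all tested genes. The main channel and the other sensor did not pass the test: ORAI1, the pore of the store-operated channel, was at 486 ± 16.2 in Par and 454 ± 25.96 in GemR siSTIM1 (-0.10 ± 0.10), and STIM2, a paralogue of STIM1, was at 407 ± 2.19 and 374 ± 28.9 (-0.12 ± 0.10).

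The other channel subunits were higher in the depleted cells. ORAI3 was at 41.6, 57.9 and 44.9 in Par and 185, 189 and 192 in GemR siSTIM1. All depleted libraries held more ORAI3 than any parental one, with a rise of 1.96 ± 0.15 (adjusted p = 4.47e-09). In GemR siCont ORAI3 was at 67.9, 56.05 and 60.6, which overlapped the range of Par (0.36 ± 0.15, adjusted p = 0.076), and the difference between siSTIM1 and siCont was 1.61 ± 0.15 (adjusted p = 2.07e-07). ORAI2 rose from 149 ± 22.4 to 297 ± 32.6 (0.99 ± 0.13), with GemR siCont at 256 ± 40.5. SLC8A1, a sodium-calcium exchanger of the plasma membrane, was low in Par, at 10.2, 4.45 and 8.78, and higher in GemR siSTIM1, at 42.1, 28.5 and 37.7 (2.12 ± 0.35). ATP2C2, a calcium pump of the Golgi apparatus, rose by 1.11 ± 0.19, and MICU2, a regulator of the mitochondrial calcium uniporter, by 0.71 ± 0.09.

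The members that fell include regulators and store proteins. CRACR2B, which modulates the store-operated channel, was at 138, 116 and 141 in Par and 34.1, 40.7 and 28.8 in GemR siSTIM1, and the groups did not overlap (-1.91 ± 0.23, adjusted p = 1.20e-06). SARAF, an ER protein that dampens store-operated entry, was at 4199.9, 4223 and 4072 and 2236, 2237 and 2134, a log2 fold change of -0.92 ± 0.06 (adjusted p = 8.64e-10), with GemR siCont between them at 3187 ± 322. CALR, a calcium-binding chaperone of the ER lumen, fell from 17196 ± 549 to 11112 ± 85.7 (-0.63 ± 0.06). The receptors that release calcium from the ER, ITPR1 (-0.72 ± 0.25) and ITPR2 (-0.63 ± 0.14), were lower too, though ITPR1 was not called without Par replicate 3 (adjusted p = 0.0908) or GemR siSTIM1 replicate 2 (0.0752). ATP2A2, the SERCA pump found in most cells, was at 6486 ± 443 in Par and 6513 ± 308 in the depleted cells (0.01 ± 0.12, not called, and on either side of 0 when single libraries were left out), while its paralogue ATP2A3 fell from 87.2 ± 6.68 to 44.5 ± 7.60 (-0.97 ± 0.21).

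**Figure D1:**
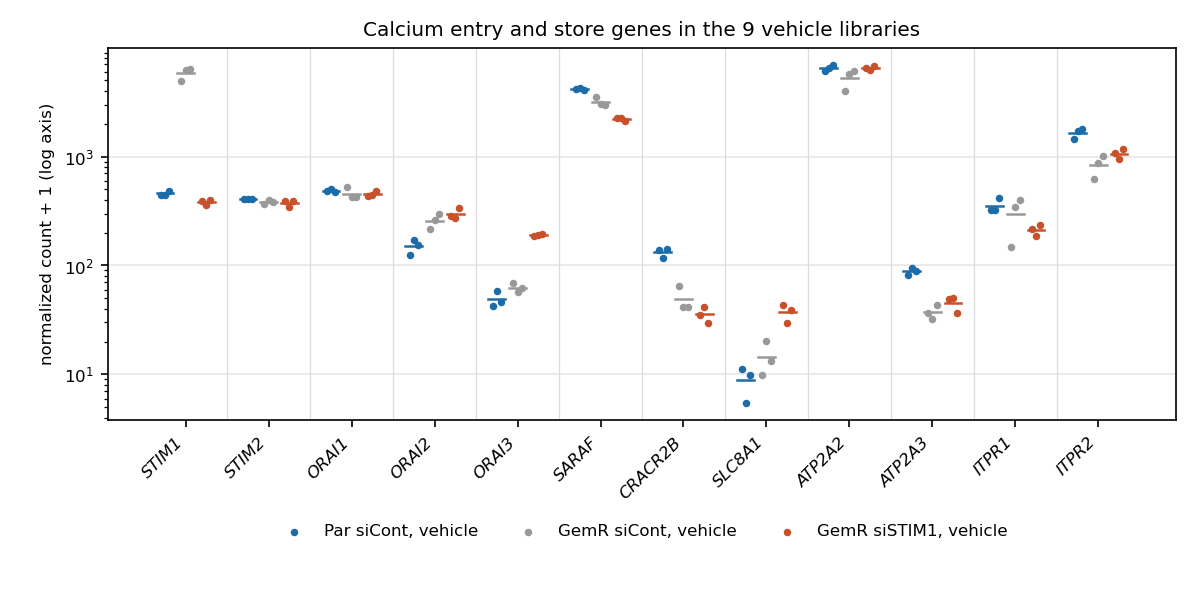
Normalised count plus 1 (log axis) of 12 calcium entry and store genes in each of the 9 vehicle libraries, with points for libraries and a bar for the mean of each group of 3. STIM1 was near 457 in Par and 382 in GemR siSTIM1 but at 5890 in GemR siCont, and ORAI3 stood higher in GemR siSTIM1 than in both siCont groups.

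Of 18 tested members of the calcineurin and NFAT pathway, 4 rose (22.2%) and 6 fell (33.3%), with a median of 0.02, near the shares of all tested genes (24.2% and 26.3%). NFATC2, a calcium-responsive NFAT factor, was at 186, 270.2 and 178 in Par and 86.5, 53.9 and 78.5 in GemR siSTIM1, a log2 fold change of -1.52 ± 0.19 (adjusted p = 1.91e-06). The NFAT target EGR2 was at 26.1 ± 5.06 and 7.63 ± 1.14, a log2 fold change of -1.64 ± 0.21, and EGR3 fell by 1.43 ± 0.29. In GemR siCont these transcription factors were at 34.9 ± 4.16 (EGR2) and 35.2 ± 3.41 (EGR3), near the parental means. SPP1, which encodes osteopontin, rose from 94.5 ± 17.99 to 422 ± 21.2 (2.16 ± 0.13). RCAN1 (0.396), NFAT5 (0.593) and PPP3CA (0.3) were the other members that rose. NR4A2 (-0.876), PTGS2 (-0.438) and PPP3R1 (-0.393) were the other members that fell. By edgeR's quasi-likelihood test on 17 libraries, 2 members rose.

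RRM1 was part of a stretch of chromosome 11 in which most expressed genes were higher in the depleted resistant cells. STIM1 lies at chr11:3854527-4093210 and RRM1 at chr11:4094707-4138876, both on the plus strand in GRCh38. The stretches described here were marked out after the values had been seen. From RRM1 over 6 Mb towards the centromere, 38 genes were tested, of which 34 rose and 2 fell, with a median log2 fold change of 1.80. From the tip of the short arm up to STIM1, 65 genes were tested, of which 6 rose and 48 fell, with a median of -0.74. In the rest of the chromosome, 597 genes were tested, of which 152 rose and 164 fell, with a median of -0.02. In GemR siCont against Par, in which 38.2% of all tested genes were called, the medians of the first stretches were 1.82 and -0.47 (1.82 and -0.58 without GemR siCont replicate 1). Between siSTIM1 and siCont the stretch from RRM1 had a median of -0.01 (-0.07 without that library). These comparisons share libraries, and their log2 fold changes add up gene by gene.

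The raised neighbours of RRM1 included ubiquitin ligases and housekeeping genes. TRIM21, a cytosolic antibody receptor and ubiquitin ligase, was at 290.4, 288 and 301 in Par and 2062, 2055 and 2183 in GemR siSTIM1. TRIM68, another ligase of the family, was at 125, 122 and 125 and 991, 1001 and 1017. Neither gene overlapped between the groups, and the rises were 2.84 ± 0.08 and 3.01 ± 0.09 (adjusted p = 1.78e-15 and 3.34e-15). Farther along the chromosome, the rises were 2.16 ± 0.09 for TRIM5, a restriction factor of retroviruses, 1.86 ± 0.07 for ILK, integrin-linked kinase, 1.59 ± 0.10 for EIF3F, a translation initiation factor, 1.45 ± 0.13 for the ribosomal protein RPL27A, 2.05 ± 0.08 for SWAP70 and 0.97 ± 0.10 for the nuclear import receptor IPO7. Of the 4 genes of the stretch that did not rise, CYB5R2 (-0.12 ± 0.22) and STK33 (-0.37 ± 0.18) did not pass the test, and ZNF215 (-0.48 ± 0.17) and TUB (-0.31 ± 0.13) were called lower. TUB lost the call without any 1 of the 6 libraries (adjusted p between 0.0585 and 0.134), and ZNF215 lost it without Par replicate 2 (0.0619), Par replicate 3 (0.0661) or GemR siSTIM1 replicate 1 (0.121). WEE1, a kinase that holds cells out of mitosis and lies between IPO7 and SWAP70, rose by 0.92 ± 0.07, and EIF4G2, past the end of the stretch, fell by 0.77 ± 0.06.

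On the other side of STIM1 the genes were mostly lower. In the 1 Mb before the start of STIM1, 11 genes were tested, of which 1 rose and 9 fell. NUP98, a nuclear pore protein, was at 2749, 2666 and 3232 in Par and 1929.9, 1879.7 and 2027 in GemR siSTIM1 (-0.56 ± 0.12, adjusted p = 5.56e-04). RHOG, a small GTPase and the nearest tested gene before STIM1, was at 784, 827 and 825 and 437, 496 and 481 (-0.79 ± 0.09, adjusted p = 4.29e-07), so that neither gene overlapped between the groups. CARS (-0.85 ± 0.07), PGAP2 (-0.67 ± 0.12), ZNF195 (-0.74 ± 0.11), NAP1L4 (-0.62 ± 0.06) and PHLDA2 (-0.83 ± 0.12) fell as well. CHRNA10, whose annotated span overlaps one end of NUP98 on the same strand, fell from 22.98 ± 2.11 to 4.56 ± 2.19 (-2.20 ± 0.51). CDKN1C (-0.84 ± 0.30) was lower and SLC22A18 (0.54 ± 0.22) higher, and both lost the call without Par replicate 1 (adjusted p = 0.0663 and 0.0888), Par replicate 3 (0.0573 and 0.154), GemR siSTIM1 replicate 2 (0.0645 and 0.0762) or GemR siSTIM1 replicate 3 (0.101 and 0.234). SLC22A18 also lost it without Par replicate 2 (0.0508) and without GemR siCont replicate 2 (0.054) or 3 (0.0506) in the fit. CRACR2B, described above, lies in the same lowered arm.

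**Figure D2:**
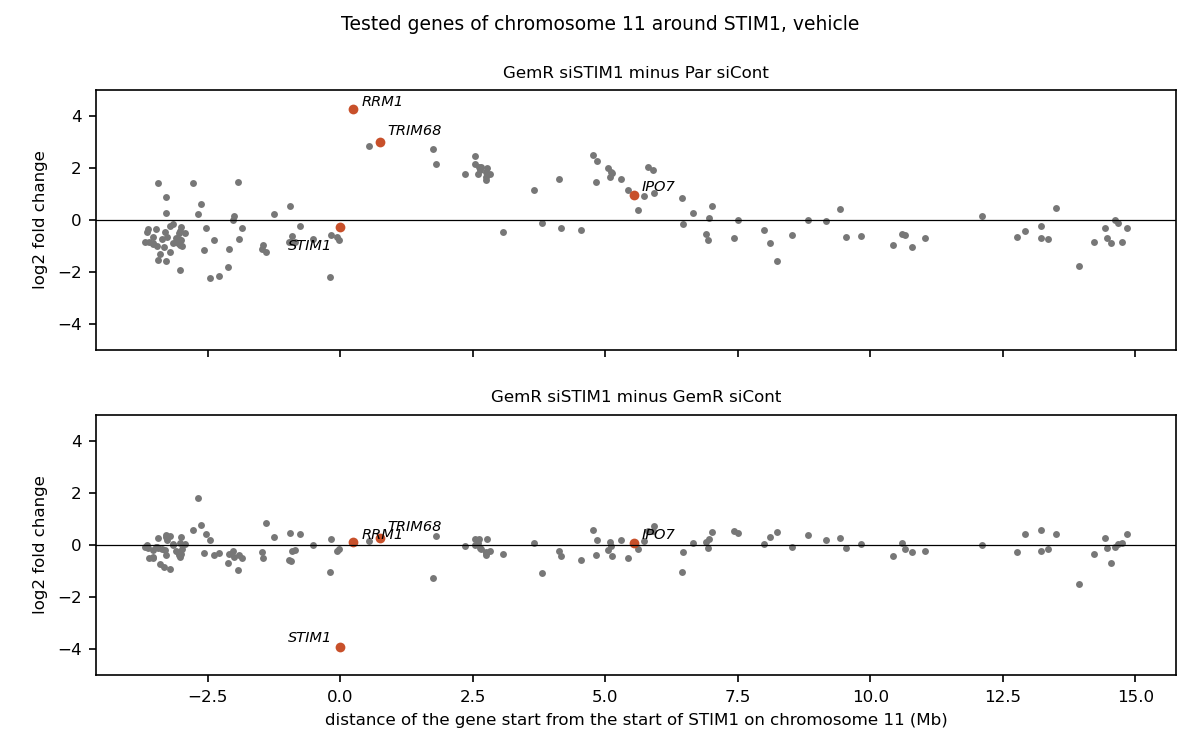
Log2 fold change of each tested gene against the distance in Mb of its start from the start of STIM1, for GemR siSTIM1 minus Par siCont (top) and GemR siSTIM1 minus GemR siCont (bottom), with 1 point per gene. In the top panel genes over the 6 Mb from RRM1 lie mostly above 0 and genes before STIM1 mostly below, and in the bottom panel STIM1 is at -3.93.

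Many genes outside this region also differed between the groups, and 1428 genes (10.9%) were called with a difference of at least 2-fold, of which 781 rose (5.96% of all tested genes) and 647 fell (4.94%). Among the genes with the largest rises, PTGES, the enzyme that makes prostaglandin E2, was at 55.8, 57.9 and 66.3 in Par and 2697, 2751 and 2621 in GemR siSTIM1 (5.47 ± 0.10, adjusted p = 1.93e-18). MSLN, which encodes the surface antigen mesothelin, was at 5.08, 2.97 and 2.93 and 109, 128 and 132 (4.76 ± 0.26, adjusted p = 1.94e-11). MAOA, a mitochondrial monoamine oxidase, was at 6.09, 2.97 and 1.95 and 91.03, 85.4 and 102 (4.42 ± 0.34, adjusted p = 2.74e-09). MSLN and MAOA were near the lower end of detection in Par. The highest genes were picked from those whose groups did not overlap, so their lack of overlap is no added result. FABP4, a fatty acid-binding protein, was at 38.6, 62.3 and 29.3 and 761, 779.7 and 697 (4.14 ± 0.24), and in GemR siCont at 254, 124 and 128, between the other groups. The remaining genes among the 15 highest were SP6 (4.12), COL5A3 (4.04), ALOX5 (3.88), BHLHE41 (3.86), PAQR8 (3.82), ADCY5 (3.80), SYNPO (3.76), SRPX2 (3.56), ADARB2 (3.56) and LY6K (3.54), beside RRM1. In GemR siCont PTGES, MAOA and LY6K were at 2881 ± 244, 91.3 ± 20.7 and 434 ± 94.8, near the depleted cells. Their log2 differences between siSTIM1 and siCont did not pass the test (-0.10, 0.05 and -0.09, adjusted p = 0.478, 0.921 and 0.708). RRM1 and ALOX5 did not pass it either (0.12 and 0.67, adjusted p = 0.114 and 0.373). The other genes of the 15 were, like FABP4, called higher in GemR siSTIM1 than in GemR siCont.

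The largest falls were of genes that were almost silent in the depleted cells, and several of these were also almost silent in GemR siCont. CXCL5, a neutrophil-attracting chemokine, was at 937, 873 and 786 in Par and at 1.14, 0 and 0 in GemR siSTIM1. A single read was left in that group, which put the ratio of Par to GemR siSTIM1 at 2477, with a 95% exact interval of 444 to 97880 that covers counting error only. ST6GALNAC1, a sialyltransferase that makes the sialyl-Tn antigen, was at 101, 126 and 133 and at 0, 0 and 0.99 (ratio 342, interval 60.96 to 13554). LRRC61 was at 77.2, 56.4 and 70.2 in Par and at 0 in every GemR library, at least 66.3-fold lower when 3 reads over the group are taken as the floor. The retinaldehyde dehydrogenase ALDH1A1 (122, 33.5 to 1017), the mucin-type glycosyltransferase GCNT3 (204, 36.2 to 8107) and HCLS1 (84.5, 28.6 to 412) also had at most 3 reads in the depleted cells, as given by their ratios with intervals. Among genes with more reads, COL3A1, a fibrillar collagen, was at 7212, 7679 and 7156 and 68.3, 64.04 and 90.4 (-6.63 ± 0.12, adjusted p = 1.37e-18). C4BPB (-6.49), SERPINB2 (-5.72), PLTP (-5.71), KRT6A (-5.18), CLDN2 (-5.07), MLLT11 (-4.84), MAGED1 (-4.74) and KRT5 (-4.70) completed the 15 lowest. In GemR siCont MLLT11 and MAGED1 were at 13.1 ± 2.21 and 15.8 ± 4.38, near their means in the depleted cells, 10.9 ± 4.73 and 12.9 ± 2.96. CXCL5, ST6GALNAC1, ALDH1A1, GCNT3 and HCLS1 were there at 4.16 ± 4.20, 1.35 ± 0.76, 0.98 ± 0.12, 4.87 ± 0.95 and 4.36 ± 1.98, also far below Par. COL3A1, KRT6A and KRT5 were at 174 ± 9.53, 85.0 ± 20.8 and 1408 ± 42.8 in GemR siCont, between the other groups.

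**Figure D3:**
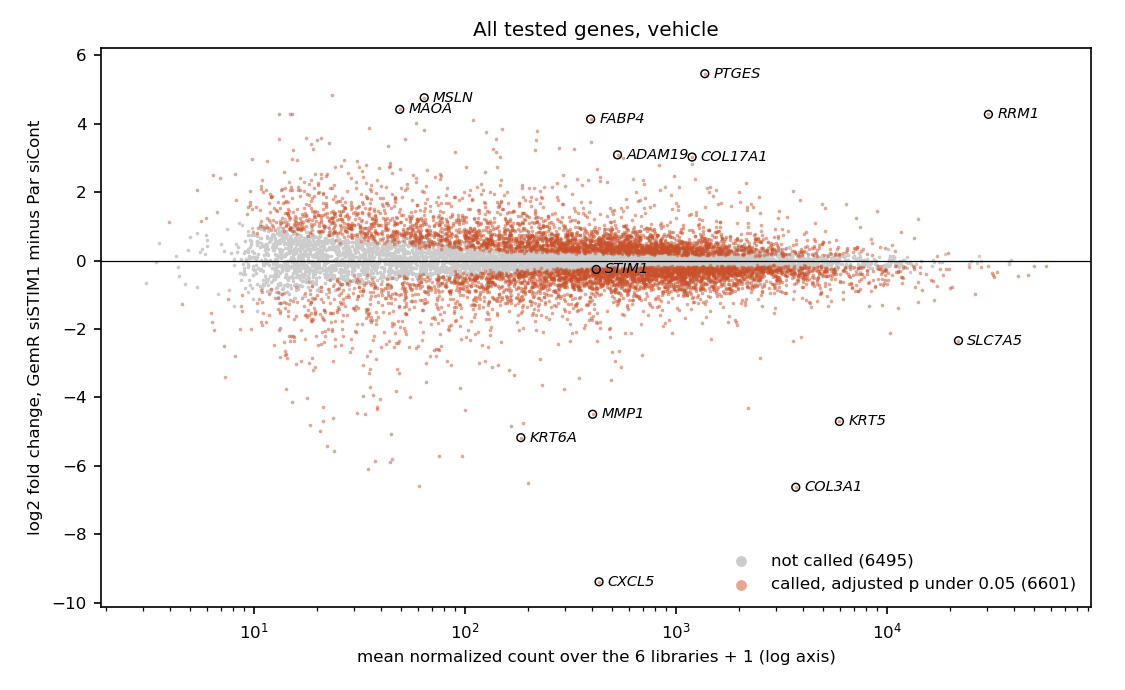
Log2 fold change of GemR siSTIM1 minus Par siCont for the 13096 tested genes against their mean normalised count plus 1 over the 6 libraries (log axis), with the 6601 called genes in colour and 14 named genes circled. STIM1 lies near 0, RRM1 and PTGES lie above 4, and CXCL5, COL3A1 and KRT6A lie below -5.

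Most tested CXC chemokine genes were lower in the depleted cells. Of 31 genes listed for chemokines, cytokines and NF-kB, 21 were tested, of which 7 rose (33.3%) and 11 fell (52.4%), with a median of -0.55. The promoters of several are known targets of NF-kB, and the 9-letter sequence GGAATTTCC, a form of its binding site, was searched on both strands in the 250 bases before each start site (RefSeq, GRCh38.p14). It stood in 145 of 35116 windows (0.413%). Of the 31 listed genes 24 matched a window, 10 of these held the sequence and 8 of the 10 were tested. CXCL5, CXCL6, CXCL1, CXCL3 and CXCL8 fell and NFKBIA and NFKB1 rose. CXCL2 (-0.05 ± 0.28) did not pass the test and changed sign when single libraries were left out (-0.33 to 0.32). A match is a description of the letters and not a site. The stretch from 120 to 41 bases before the start site is shown, 5′ to 3′ on the strand of the gene, for chemokines that fell and for NFKBIA, which rose. Capitals mark the sequence searched, which in NFKBIA stands on the opposite strand. CXCL5, chr4:73998718-73998797, lies on the minus strand. CXCL6 is at chr4:73836558-73836637, CXCL1 at chr4:73869273-73869352 and CXCL8 at chr4:73740449-73740528, all on the plus strand, and NFKBIA is at chr14:35404790-35404869 on the minus strand.
CXCL5: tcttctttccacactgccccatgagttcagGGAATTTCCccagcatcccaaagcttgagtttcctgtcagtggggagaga
CXCL6: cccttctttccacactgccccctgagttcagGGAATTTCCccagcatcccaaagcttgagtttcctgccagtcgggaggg
CXCL1: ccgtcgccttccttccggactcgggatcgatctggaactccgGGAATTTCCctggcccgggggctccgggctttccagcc
CXCL8: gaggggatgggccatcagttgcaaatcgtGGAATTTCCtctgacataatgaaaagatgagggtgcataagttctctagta
NFKBIA: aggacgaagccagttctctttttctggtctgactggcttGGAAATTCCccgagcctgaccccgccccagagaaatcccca

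Among the genes with these stretches, CXCL6 was at 25.4, 29.7 and 38.04 in Par and 3.41, 1.02 and 5.96 in GemR siSTIM1, a log2 fold change of -2.998 ± 0.43 (adjusted p = 1.14e-05). CXCL1 was at 437, 655 and 481 and 116, 111 and 126, a log2 fold change of -2.12 ± 0.17 (adjusted p = 4.86e-09). CXCL8, which encodes interleukin-8, was at 2482, 4036 and 2312 and 807, 772 and 1004, a log2 fold change of -1.74 ± 0.20 (adjusted p = 6.57e-07). No depleted library reached the lowest parental one for any of these chemokines, and Par replicate 2 was the highest for CXCL1 and CXCL8. In GemR siCont CXCL1 and CXCL8 were at 139 ± 42.8 and 998 ± 317, near the depleted cells. CXCL1, CXCL2 and CXCL3 are close copies, so their reads may have been split between them. CCL20, a ligand for CCR6, fell from 79.8 ± 47.8 to 13.1 ± 3.41 (-2.39 ± 0.31), the chemokine receptor CXCR4 from 514 ± 32.5 to 193 ± 18.96 (-1.41 ± 0.11) and TNFAIP3, which turns off NF-kB signalling, from 1478 ± 357 to 559.5 ± 65.3 (-1.38 ± 0.19).

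Other genes of the same list rose. TNFAIP2, induced by tumour necrosis factor, was at 513, 518 and 572 in Par and 2319, 2245 and 2528 in GemR siSTIM1 (2.14 ± 0.09, adjusted p = 2.85e-13), with GemR siCont at 1697 ± 128. CSF1, a growth factor of macrophages, rose from 52.96 ± 4.81 to 153 ± 5.42 (1.52 ± 0.14), and the cytokine LIF from 3624 ± 199 to 6634 ± 270.1 (0.87 ± 0.08). The inhibitor of apoptosis BIRC3 was at 739 ± 83.5 in GemR siSTIM1, against 367 ± 53.5 in GemR siCont and 418 ± 77.3 in Par (0.83 ± 0.14). NFKBIA, the inhibitor that holds NF-kB in the cytoplasm, rose by 0.42 ± 0.12, from 1217 ± 78.5 to 1637 ± 188.

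Of 12 tested enzymes of prostaglandins, leukotrienes and monoamines, 6 rose, 2 fell and 4 did not pass the test, with a median of 0.91. ALOX5, which starts the synthesis of leukotrienes, was at 4.06, 0 and 14.6 in Par and 67.1, 59.98 and 59.6 in GemR siSTIM1 (3.88 ± 0.58). PTGS2, the inducible cyclooxygenase upstream of PTGES, was at 981, 1195 and 1109.9 in Par and 823, 731 and 870.0 in GemR siSTIM1, a log2 fold change of -0.44 ± 0.13 (adjusted p = 0.0083), and in GemR siCont at 379.7, 461 and 481. The synthase and the cyclooxygenase thus moved in opposite directions against Par. AKR1C1, AKR1C2 and AKR1C3, ketosteroid reductases of which AKR1C3 also acts on prostaglandins, rose by 1.87 ± 0.17, 1.60 ± 0.16 and 2.001 ± 0.18, but they are near-identical copies whose reads may be split. The count of falls was 1 without Par replicate 1 or 2 and without GemR siSTIM1 replicate 1 or 3.

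Keratins and junction genes were mostly lower. Of 16 tested keratins, 1 rose (6.25%) and 10 fell (62.5%), with a median of -0.63. KRT5, a basal keratin, was at 12337, 10456 and 11751 in Par and 399, 465 and 462 in GemR siSTIM1. KRT13 was at 4733, 4447 and 4065 and 620.2, 598 and 616. Both genes were far lower in each depleted library than in any parental one (-4.70 ± 0.07 and -2.85 ± 0.14), and GemR siCont lay between, at 1408 ± 42.8 and 1837 ± 482. KRT6A, which has near-identical copies, fell by 5.18 ± 0.23. KRT7, KRT8, KRT18 and KRT19, the keratins of simple duct epithelium, had log2 fold changes of 0.01 ± 0.08 (not called, and on either side of 0 when single libraries were left out), -0.79 ± 0.09, -0.48 ± 0.09 and -0.61 ± 0.11. KRT23 was the 1 that rose (1.12 ± 0.11), and without GemR siCont replicate 1 in the fit 2 keratins rose.

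Of 24 tested epithelial junction and adhesion genes, 3 rose (12.5%) and 13 fell (54.2%), with a median of -0.22. CLDN4, a claudin of tight junctions, was at 549, 730.3 and 474 in Par and 155, 132 and 155 in GemR siSTIM1 (-1.96 ± 0.24, adjusted p = 1.48e-06). CLDN7 (-1.66 ± 0.12), CLDN3 (-1.54 ± 0.16), occludin, encoded by OCLN (-1.42 ± 0.20), and the adhesion molecule EPCAM (-1.36 ± 0.10) fell as well. The claudin CLDN1 went the other way, from 4179.6, 4288 and 4199.6 to 10141, 9386 and 10618 (1.25 ± 0.06), as did the cadherin CDH3 (1.19 ± 0.07). CDH1, which encodes E-cadherin, was at 172, 263 and 179 in Par, 81.3, 81.4 and 89.02 in GemR siCont and 254, 250.1 and 258 in GemR siSTIM1, and its difference from Par did not pass the test (0.34 ± 0.14, adjusted p = 0.0518). It was called in the 6 compared libraries alone (adjusted p = 0.0392), without Par replicate 2 (0.53, adjusted p = 0.0021), and without GemR siCont replicate 1 (0.0347) or 3 (0.0497) in the fit. In GemR siCont against Par, 18 members of this list fell and 2 rose, where 20.1% of all tested genes fell and 18.1% rose. Between siSTIM1 and siCont 11 rose and 1 fell, where 20.9% of all tested genes rose, 21.1% fell and 42.0% were called either way. Without GemR siCont replicate 1 these counts of the list were the same, 18 and 2, and 11 and 1.

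Both subtype lists of pancreatic cancer held more falls than rises. Of 16 tested genes of the classical subtype and its lineage factors, 2 rose (12.5%) and 9 fell (56.2%), with a median of -0.54. In GemR siCont against Par the list's median was -0.67, and between siSTIM1 and siCont it was 0.22, both with all 3 GemR siCont libraries. FOXA2, an endoderm transcription factor, was at 321, 333 and 284 in Par and 35.3, 26.4 and 28.8 in GemR siSTIM1 (-3.34 ± 0.20). GATA6, a marker and driver of the classical subtype, was at 371, 374 and 411 and 118, 117 and 119 (-1.70 ± 0.12), and the tetraspanin TSPAN8 at 1209 ± 133 and 177 ± 14.7 (-2.76 ± 0.13). No values of these genes overlapped between the groups. The close copies CEACAM5 (-1.89 ± 0.21) and CEACAM6 (-2.02 ± 0.17) fell, and TFF2, a secreted trefoil peptide, rose by 1.12 ± 0.20. In GemR siCont FOXA2 was at 74.4 ± 2.43, between the other groups. TSPAN8 and CEACAM6 were there at 101 ± 17.1 and 40.7 ± 3.33, lower than in the depleted cells (177 ± 14.7 and 70.6 ± 12.2). Without GemR siSTIM1 replicate 1 the list had 1 rise. Of 13 tested basal-like genes, 3 rose (23.1%) and 7 fell (53.8%), with a median of -0.74. In GemR siCont against Par the median of these genes was 0.17 (0.10 without GemR siCont replicate 1). TP63, the factor that drives basal keratins, was at 767 ± 85.9 in GemR siSTIM1, against 1448 ± 208 in GemR siCont and 1279.8 ± 50.7 in Par (-0.74 ± 0.10), and the calcium-binding protein S100A2 at 8520.0 ± 629, 23026 ± 7208 and 19792 ± 2260.0 in the same order (-1.21 ± 0.14).

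Mesenchymal genes showed no single direction: of 14 tested, 6 rose (42.9%) and 2 fell (14.3%), with a median of 0.31. FN1, which encodes fibronectin, was at 73.1, 90.5 and 70.2 in Par and 344, 278 and 416 in GemR siSTIM1 (2.12 ± 0.18, adjusted p = 1.39e-08). In GemR siCont it was at 52.3, 73.6 and 71.03, within the lower part of the parental range or below it. VIM, the intermediate filament vimentin, rose from 9011 ± 659 to 12250.4 ± 764 (0.44 ± 0.08), and the receptor kinase AXL from 2221 ± 216 to 4181 ± 168 (0.92 ± 0.08). The transcription factors SNAI1 (-1.72 ± 0.37) and PRRX1 (-2.03 ± 0.55) fell from low levels, 22.02 ± 4.95 and 19.7 ± 9.99 in Par.

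Surface antigens were more often higher. Of 17 tested mucins and surface antigens, 8 rose (47.1%) and 2 fell (11.8%), with a median of 0.24. L1CAM, a neural cell adhesion molecule found on tumour cells, was at 13.2, 19.3 and 19.5 in Par, 50.1, 72.7 and 87.1 in GemR siCont and 163, 158 and 165 in GemR siSTIM1 (3.17 ± 0.19). NT5E, the ectoenzyme CD73 that makes adenosine, was at 228, 281 and 239, 768, 737 and 799 and 1243, 1171 and 1093 in the same order (2.23 ± 0.08). For both genes the 3 groups did not overlap, with GemR siCont in between. MUC2, a gel-forming mucin, rose by 1.40 ± 0.20. The count of rises was 5 without Par replicate 1 or GemR siSTIM1 replicate 3, and the count of falls was 1 without Par replicate 2 or 3 and without GemR siSTIM1 replicate 1 or 2.

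In the extracellular matrix list, 35 genes were tested, of which 13 rose (37.1%) and 8 fell (22.9%), with a median of 0.10. COL17A1, a transmembrane collagen of hemidesmosomes, was at 244, 285 and 254 in Par, 1003, 1209 and 1327 in GemR siCont and 2219, 2023 and 2156 in GemR siSTIM1 (3.03 ± 0.09, adjusted p = 4.91e-15). LAMA4, a laminin chain, was at 279, 368 and 299, 286, 345 and 302 and 1109, 1024 and 1198. Its rise over Par was 1.82 ± 0.10, and GemR siCont stayed within the parental range (-0.01 ± 0.10, adjusted p = 0.926). ITGB8, an integrin chain that activates TGF-beta, rose by 2.29 ± 0.13. TNC, which encodes tenascin-C, had 2 reads in Par and 77 in GemR siSTIM1, a ratio of 36.01 with an interval of 9.64 to 302.7. The fibrillar collagen COL1A1 fell from 2044 ± 124 to 1059 ± 87.2 (-0.95 ± 0.08), beside COL3A1.

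Of 13 fibroblast markers, a list that holds these collagens, 6 were tested. COL3A1, COL1A1, COL1A2 (-4.27 ± 0.57), PDPN (-2.92 ± 0.23) and FBLN1 (-0.44 ± 0.07) fell, and ACTA2 rose (2.12 ± 0.29). Their summed normalised counts lay between 10522 and 11047 in Par and between 1876 and 2146 in GemR siSTIM1, and without COL3A1 and COL1A1 between 1277 and 1443 and between 798 and 896. DCN, LUM, FAP and POSTN, defining genes of fibroblasts, were at 0 in all 6 libraries. Of 16 immune and endothelial markers, 3 were tested and all 3 fell (against 26.3% of all tested genes): CDH5 (-2.03 ± 0.19), PECAM1 (-0.55 ± 0.13) and CD68 (-0.47 ± 0.16). Means under 10 in both groups were seen for 13 of the 16. At 0 in all libraries of a group were 8 markers in Par and 5 in GemR siSTIM1, 4 of them in both. Fewer markers were thus without reads in GemR siSTIM1 than in Par. CD68 was not called without Par replicate 1 (adjusted p = 0.0876) or GemR siSTIM1 replicate 2 (0.176). Their sums were between 399 and 410 (Par) and between 192 and 274 (GemR siSTIM1), and CD3D, MS4A1 and HBB were at 0 in all 6 libraries. In a bulk sample, fewer cells of a kind and less RNA per cell cannot be told apart.

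Proteases and their inhibitors split evenly: of 24 tested, 10 rose (41.7%) and 11 fell (45.8%), with a median of -0.19. MMP1, interstitial collagenase, was at 858, 770.4 and 693 in Par, 127, 91.95 and 102 in GemR siCont and 31.9, 32.5 and 35.8 in GemR siSTIM1 (-4.49 ± 0.14, adjusted p = 7.99e-15). ADAM19, a membrane metalloproteinase, was at 87.3, 128 and 120.0, 204, 324 and 293 and 985, 945 and 914 (3.09 ± 0.17, adjusted p = 2.03e-11). The 2 genes moved in opposite directions, each with GemR siCont between the other groups and no overlap. SERPINB2, an inhibitor of urokinase, was at 117, 226 and 97.5 in Par and 0, 1.02 and 7.95 in GemR siSTIM1 (-5.72 ± 0.59), and SERPINA1, which encodes alpha-1 antitrypsin, rose by 2.94 ± 0.70. MMP14, a membrane-bound activator of other metalloproteinases, rose from 1244 ± 97.1 to 2675 ± 71.2 (1.11 ± 0.07), and the lysosomal protease CTSD fell by 1.11 ± 0.09.

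**Figure D4:**
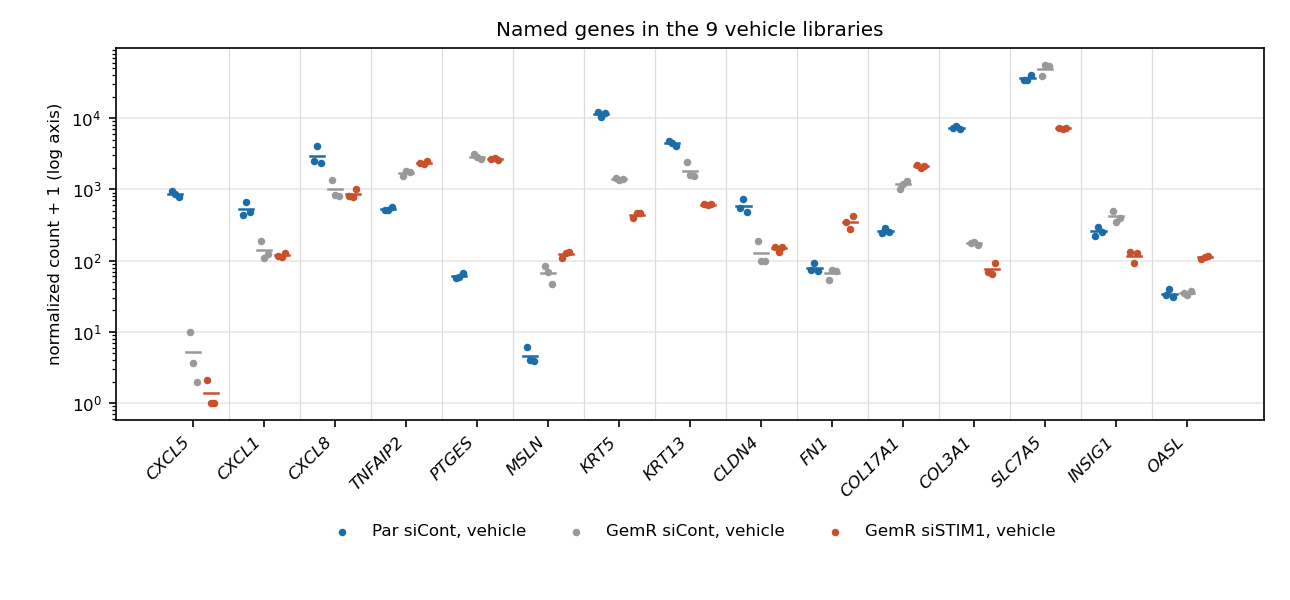
Normalised count plus 1 (log axis) of 15 named genes in each of the 9 vehicle libraries, with points for libraries and a bar for the mean of each group of 3. For CXCL1, CXCL8, PTGES and CLDN4 both GemR groups lie on the same side of Par, whereas for FN1 and OASL GemR siCont lies near Par and GemR siSTIM1 above both.

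Genes of secreted signals and their receptors moved in both directions. Of 25 tested Wnt ligands, inhibitors and targets, 5 rose (20.0%) and 11 fell (44.0%), with a median of -0.13, where 24.2% of all tested genes rose and 26.3% fell. RNF43, a ligase that removes Wnt receptors, was at 134, 89.1 and 134 in Par and 13.7, 14.2 and 20.9 in GemR siSTIM1 (-2.80 ± 0.26), and the receptor LGR4 at 3158, 2902 and 3192 and 924, 829.5 and 753 (-1.89 ± 0.13). The inhibitors DKK4 (-4.05 ± 0.53), NKD2 (-2.17 ± 0.16) and DKK1 (-1.29 ± 0.14) fell too, DKK1 from 13567 ± 2997 to 5496 ± 586. LGR5, a stem cell receptor of the same pathway, rose from a low level, 7.63 ± 4.01 in Par to 31.2 ± 4.79 in GemR siSTIM1. The count of rises was 3 when Par replicate 1, Par replicate 2, GemR siSTIM1 replicate 2 or GemR siSTIM1 replicate 3 was left out.

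Of 24 tested genes of BMP and TGF-beta signalling, 7 rose (29.2%) and 10 fell (41.7%), with a median of 0.03. ID2 (-3.03 ± 0.38) and ID3 (-1.07 ± 0.13), targets of BMP that inhibit other transcription factors, and the pseudoreceptor BAMBI (-1.18 ± 0.24) fell. BMPER, a secreted BMP modulator, rose by 2.69 ± 0.28 and LTBP2, a matrix protein of the TGF-beta binding family, by 2.01 ± 0.14. Of 14 tested EGF ligands and receptors, 5 rose (35.7%) and 4 fell (28.6%), with a median of 0.30, near the shares of all tested genes (24.2% and 26.3%). LRIG1, an inhibitor that lowers EGF receptors, was at 2230.4, 2409 and 2711 in Par and 513, 473 and 513 in GemR siSTIM1 (-2.29 ± 0.11), and the ligand EPGN at 82.8 ± 0.73 and 19.3 ± 3.00 (-2.06 ± 0.34). The ligands NRG2 (1.31 ± 0.12) and HBEGF (0.58 ± 0.11) rose. EGFR itself was at 1391, 1589.8 and 1898 in Par and 2650.2, 1916 and 2707 in GemR siSTIM1 and did not pass the test (0.57 ± 0.28, adjusted p = 0.096), although the groups did not overlap. With the 6 compared libraries alone its adjusted p was 2.63e-04, and without GemR siCont replicate 1 or replicate 3 in the fit 0.0034 and 0.0497. With the length term it was 1.26e-10. That term was taken from the same deviations whose spread it lowers, so no weight is placed on this value.

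Of 17 tested genes of YAP, TEAD and their targets, 9 rose (52.9%) and 3 fell (17.6%), with a median of 0.32. The list holds the regulators YAP1, WWTR1, TEAD1, TEAD4 and VGLL4 beside targets. Among these regulators YAP1 (0.316) and VGLL4 (0.633) were called higher, and the others were not called. DLC1, a GTPase-activating protein, was at 387, 376 and 430.1 in Par, 553, 735 and 733 in GemR siCont and 2090.4, 1991 and 2124 in GemR siSTIM1 (2.38 ± 0.10), and AMOTL2, which binds YAP at junctions, at 2115, 2639 and 2409, 3856, 5112 and 5479 and 7472, 7301 and 7797 (1.66 ± 0.10). The groups of these genes did not overlap and GemR siCont lay between the others. ANKRD1 fell by 1.92 ± 0.09, and the widely used targets CTGF (-0.03 ± 0.14, not called, with -0.20 to 0.13 when single libraries were left out) and CYR61 (-0.54 ± 0.13, lower) did not rise.

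Immediate early genes, which respond to growth factors and calcium within minutes, were mostly lower. Of 28 tested, 7 rose and 15 fell, with a median of -0.34. KLF2, a zinc finger factor, was at 343, 463 and 393 in Par, 266, 230.3 and 207 in GemR siCont and 71.7, 40.7 and 52.6 in GemR siSTIM1 (-2.87 ± 0.17). FOS was at 339, 286 and 345 in Par and 89.9, 132 and 102 in GemR siSTIM1 (-1.59 ± 0.14), and FOSB at 138, 303 and 196 and 48.9, 53.9 and 53.6 (-1.93 ± 0.21). In GemR siCont FOSB was at 193 ± 9.96 and FOS at 113 ± 17.5, so that FOS but not FOSB was lower than Par in both resistant groups (adjusted p = 7.19e-08 for FOS and 0.836 for FOSB in siCont against Par). KLF6 (-1.21 ± 0.11) and JUND (-1.03 ± 0.12) fell, while DUSP1, a phosphatase that turns off MAP kinases, rose from 979 ± 358 to 2124 ± 169 (1.17 ± 0.17).

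Most sterol synthesis genes were lower in the depleted cells than in Par. Of 24 tested, 17 fell (70.8%) and the other 7 did not pass the test, with a median of -0.35. In GemR siCont against Par the median was 0.27, with 12 members higher and 1 lower, and between siSTIM1 and siCont it was -0.66, with 21 lower. Without GemR siCont replicate 1 the medians were 0.17 and -0.62, with 10 higher and 0 lower, and with 20 lower. INSIG1, which holds the sterol sensor in the ER, was at 218, 295 and 254 in Par, 503, 344 and 402 in GemR siCont and 129.7, 91.5 and 127 in GemR siSTIM1 (-1.14 ± 0.14, adjusted p = 2.48e-06). STARD4, a cholesterol carrier, was at 437, 582 and 422, 565, 479 and 554 and 176, 186 and 209.5 (-1.32 ± 0.12, adjusted p = 1.91e-08). For both genes each depleted library was below every siCont library of either cell. CYP51A1 (-0.83 ± 0.09), DHCR7 (-0.83 ± 0.09) and SQLE (-0.75 ± 0.09), enzymes of the pathway, fell as well. ABCA1, which exports cholesterol, went the other way: it was at 80.2, 122 and 148 in Par, 75.7, 152 and 152 in GemR siCont and 823, 669 and 694 in GemR siSTIM1 (2.67 ± 0.24, adjusted p = 2.74e-08).

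Targets of the PERK and ATF4 stress pathway, which include genes of amino acid supply, were lower more often than higher. Of 31 tested, 7 rose (22.6%) and 18 fell (58.1%), with a median of -0.38. SLC7A5, the light chain of the large neutral amino acid transporter, was at 34617, 34905 and 40339 in Par, 38818, 55977 and 54439 in GemR siCont and 7187, 7158 and 7316 in GemR siSTIM1. Its partner chain SLC3A2 was at 16739.8, 15788 and 16688, 23832, 22956 and 20994 and 6292, 6566 and 5907. Both chains were lower in every depleted library than in any other vehicle library, with log2 fold changes against Par of -2.34 ± 0.10 and -1.39 ± 0.07 (adjusted p = 7.99e-13 and 7.80e-12). NUPR1 (-1.85 ± 0.11), the transporter SLC1A5 (-1.22 ± 0.07), asparagine synthetase, encoded by ASNS (-1.10 ± 0.06), and the folate enzyme MTHFD2 (-1.19 ± 0.05) fell too, and these were already lower in GemR siCont, at 3225 ± 237 against 5422 ± 376 in Par for ASNS. CHAC1, a glutathione-degrading enzyme, rose from 24.3 ± 3.53 to 101 ± 10.6 (2.02 ± 0.11), and ATF4 itself by 0.48 ± 0.07.

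Of 28 tested ER chaperones and degradation genes, 20 fell (71.4%) and the other 8 did not pass the test. The median was -0.32, close to the -0.34 of GemR siCont against Par, which was also -0.34 without GemR siCont replicate 1. HSPA5, the main chaperone of the ER lumen, was at 15483, 15815 and 14945 in Par and 13574, 13409.7 and 13417 in GemR siSTIM1 (-0.19 ± 0.06), and its difference had the opposite sign by quantile normalization (0.10, adjusted p = 0.215). PDIA6 (-0.89 ± 0.06) and P4HB (-0.74 ± 0.06), disulfide isomerases, and the transcription factor XBP1 (-0.67 ± 0.08) were among those that fell. The falls in this list stayed under 2-fold.

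Interferon-stimulated genes were mostly higher. Of 31 tested, 20 rose (64.5%) and 3 fell (9.68%), with a median of 0.52. OASL was at 31.5, 38.6 and 30.2 in Par, 34.5, 32.4 and 35.99 in GemR siCont and 104, 112 and 116 in GemR siSTIM1 (1.70 ± 0.18, adjusted p = 1.97e-07), so that the siCont groups overlapped and the depleted libraries lay above both. IFIT3 (1.49 ± 0.17), the proteasome subunit PSMB9 (1.39 ± 0.20), IFIT1 (1.22 ± 0.15) and the antiviral GTPase MX1 (1.16 ± 0.23) rose too. IFIT1 was at 79.2, 108 and 90.7, 154, 116 and 106 and 225, 223 and 202 in the same order of groups. The transcription factor IRF1 fell by 0.69 ± 0.13. Among the genes raised around RRM1, TRIM21 and TRIM5 also respond to interferon, but they were not members of this list.

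**Figure D5:**
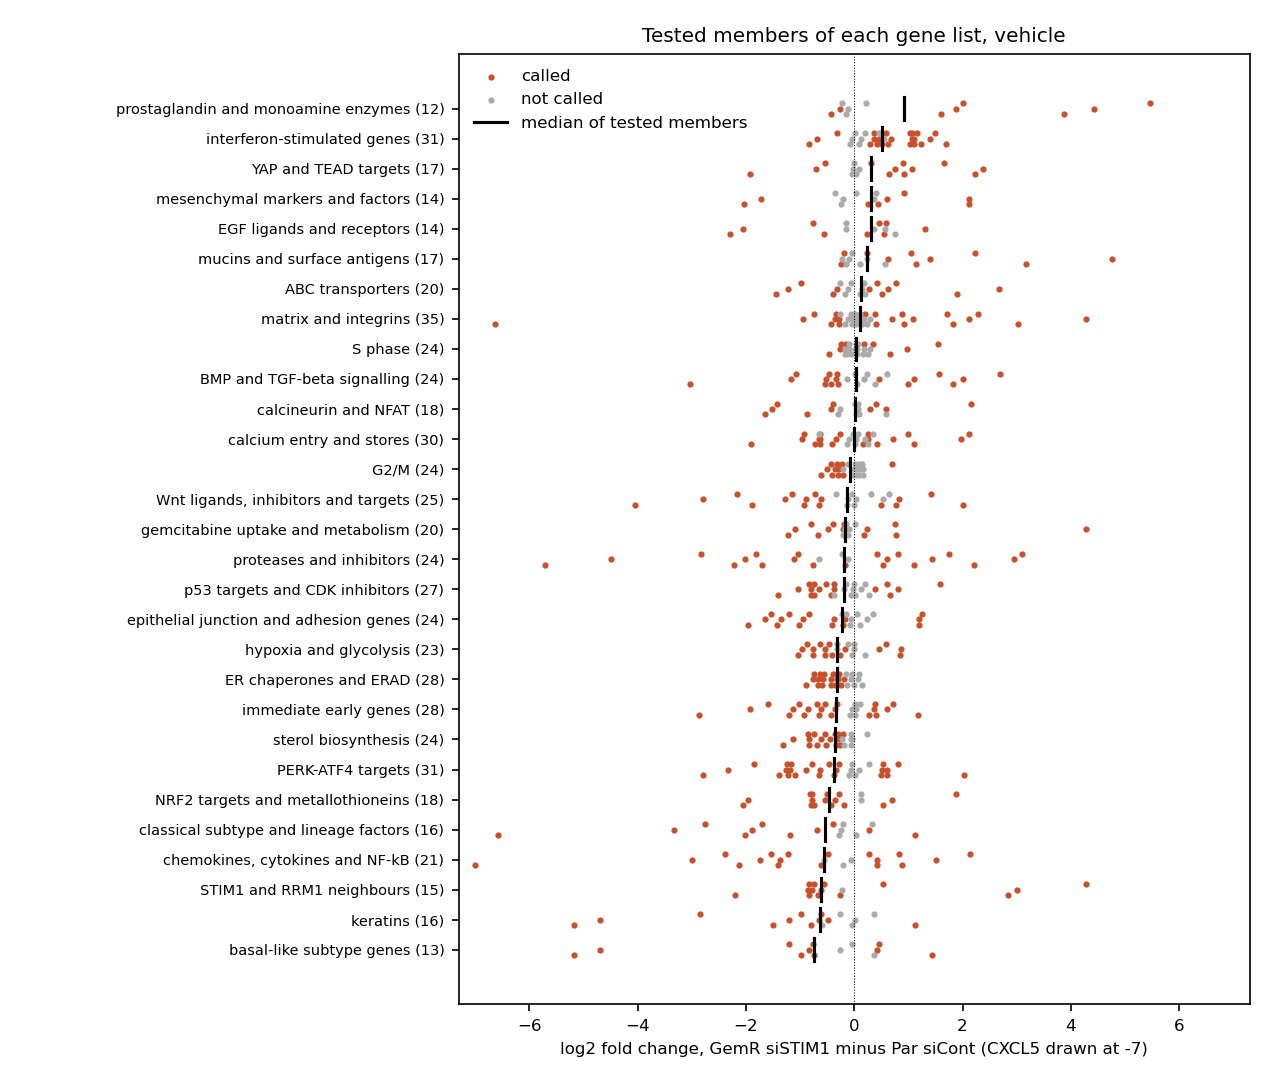
Log2 fold change of GemR siSTIM1 minus Par siCont for the tested members of 29 gene lists, with the number tested in parentheses, called genes in colour, others in grey, and a black bar for the median of each list. The medians run from -0.74 for basal-like genes to 0.91 for the list labelled prostaglandin and monoamine enzymes. Most lists hold called genes on both sides of 0.

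Beside RRM1, genes of gemcitabine uptake and metabolism moved in both directions. Of 20 tested, 5 rose and 8 fell, with a median of -0.17, and without Par replicate 2, Par replicate 3 or GemR siSTIM1 replicate 2 the rises numbered 3. The equilibrative transporters that carry the drug into cells were lower: SLC29A1 was at 831, 880.2 and 859 in Par and 556, 524 and 539 in GemR siSTIM1 (-0.67 ± 0.08), and SLC29A2 at 469, 476 and 473 and 218, 216 and 231 (-1.09 ± 0.08). Neither gene overlapped between the groups. DCK, the kinase that activates the drug, was at 476, 417 and 454 and 527, 535 and 522 (0.23 ± 0.10, adjusted p = 0.0478). The DCK call was lost without any 1 of the 6 libraries except Par replicate 1 (adjusted p between 0.0787 and 0.177) and without GemR siCont replicate 2 in the fit (0.0543). CDA, the deaminase that inactivates it, had a mean of 0.33 in GemR siSTIM1 and was at 0 in Par, too low to test. The small subunit of ribonucleotide reductase RRM2 was at 3096, 2923 and 2929.8 and 3272, 3598 and 3261 (0.18 ± 0.06), and its call was lost without Par replicate 2 (adjusted p = 0.0619), Par replicate 3 (0.0593) or GemR siSTIM1 replicate 2 (0.109). The alternative small subunit RRM2B fell from 701 ± 35.4 to 404 ± 40.2 (-0.80 ± 0.12), with GemR siCont at 669.6 ± 72.7. NT5C3A, a nucleotidase that acts on cytidine monophosphate, rose by 0.75 ± 0.09, as did the exporter ABCC4 (0.77 ± 0.17), while the exporter ABCG2 fell from 334 ± 14.1 to 143 ± 9.97 (-1.22 ± 0.15).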

How the data were processed

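Per the submitters' processing notes, STAR 2.6.0c, HTSeq 0.11.1, DESeq2 and the hg38 genome were used; the annotation is not given in the sources used here. A TruSeq kit (v2), which does not mark strand, was used on 500 ng of QIAzol-extracted RNA per library, per the labels' protocols. The deposited table holds a signal for 26485 genes in 18 libraries, normalised counts in whole multiples of 1 step per library (within 0.01), from which 8922439 to 16519239 reads per library were recovered. The step of GemR siSTIM1 replicate 3 could not be checked, so count tests used 17 libraries. The authors' own deposited tables of other comparisons (log2 fold changes and adjusted p-values) were not used. From the table, 5873 genes were at 0 in all libraries, 28 names had turned into dates and 0 mitochondrially encoded genes were listed.

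From the deposited values, log2(normalised count + 1) was fitted with limma 3.58.1 for 13096 genes whose mean over the 18 libraries reached 10. The fit (trend, 1 mean per group, 18 libraries, 12 residual degrees of freedom) was made in R 4.3.3. Its two-sided tests were adjusted by Benjamini and Hochberg over all tested genes. The same fit gave GemR siCont against Par and GemR siSTIM1 against GemR siCont, which share libraries with the comparison. No test was made of whole lists. Ratios over 1 to 3 reads have exact 95% binomial intervals. Gene positions and lengths came from GENCODE 29 (23824 symbols matched), promoters from RefSeq. The members, the 31 gene lists, the neighbours and the motif were chosen with earlier results of these data known. Named genes were STIM1, RRM1, the 15 highest and 15 lowest called log2 fold changes whose groups did not overlap (group mean of at least 50), up to 4 called members of each list, and the tested neighbours within 1000000 bases. Another 78 genes were named after their values were seen. The 25 alternatives covered a pseudocount of 0.5 or 5, a minimum mean of 0 or 50, median centring, quantile normalization, no trend, a robust prior, 9 or 6 libraries, the replicate number as a block, edgeR 4.0.16, DESeq2 1.42.0, a length term, each vehicle library left out, and, added after the data were seen, 2 libraries left out together that fell most with length. The scripts were tested on simulated data. Python 3.11.15, pandas 2.3.3, numpy 2.4.6, scipy 1.17.1 and matplotlib 3.10.9 were used.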

Additional observations from a re-analysis of the deposited data

How the results depend on the processing

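With single libraries left out, calls ranged from 5719 (without GemR siSTIM1 replicate 1) to 7539 (without GemR siCont replicate 1), higher calls from 2692 to 3647, lower calls from 3027 to 3892 and 2-fold calls from 1393 to 1466. STIM1 lay between -0.29 and -0.21 and RRM1 between 4.25 and 4.31. A minimum mean of 50, under which fewer genes were tested, left 831 calls of at least 2-fold against 1428, and no other alternative moved the counts of calls by over 1.5 times. They were 5797 by edgeR, 5816 by DESeq2 and 8265 with the length term. Deviations of same-numbered libraries of the groups had correlations of -0.00, 0.05 and 0.09, and those of differently numbered ones lay between -0.12 and 0.07. The main fit therefore used no pairing by replicate number, though these few values cannot exclude it. With the replicate block there were 7634 calls over 6 libraries and 6763 over 18.

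Of 226 genes that the naming rule took or the text named, 215 were called, and 10 of these lost the call under at least 1 alternative. Sign changes were seen in genes with differences near 0: ATP2A2 was at -0.035 by edgeR, -0.021 by DESeq2 and -0.042 to 0.057 with single libraries left out, and CTGF at 0.022 by quantile normalization and -0.20 to 0.13 with libraries left out. With libraries left out CXCL2 lay between -0.33 and 0.32 and KRT7 between -0.01 and 0.02. HSPA5 was at 0.10 by quantile normalization. Of 1600 list counts under alternatives, 1527 were within 1.5 times. Among the others, quantile normalization gave 9 S phase genes higher against 5 and 1 lower against 4, and 3 G2/M genes higher against 1 and 6 lower against 10. Wnt genes higher were 3 by it and without a filter, and 2 at a minimum mean of 50, against 5. The 6 libraries alone gave 8 S phase genes higher, as did the length term, and the length term gave 8 EGF genes higher against 5, 5 NRF2 targets higher against 3, 5 epithelial genes higher against 3 and 4 G2/M genes higher. Both edgeR and DESeq2 gave 5 mucins and surface antigens higher against 8 and 6 G2/M genes lower. At a minimum mean of 50, 4 BMP and TGF-beta genes were higher against 7. Depth limits the genes with few reads: their ratios carry wide intervals. The causes were not tested.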

Other observations

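Of 24 tested S phase genes, 5 rose (20.8%) and 4 fell (16.7%), with a median of 0.04. Both shares lay under the 24.2% and 26.3% of all tested genes. FAM111B, a protease of replicating cells, was at 389.8, 358 and 339 in Par and 1097, 1046 and 1026 in GemR siSTIM1 (1.54 ± 0.12), and CCNE2 (0.97 ± 0.12) and E2F1 (0.65 ± 0.08), which drive entry into S phase, rose as well. Of 24 tested G2/M genes, 1 rose (4.17%) and 10 fell (41.7%), with a median of -0.08. Without GemR siSTIM1 replicate 3 the falls numbered 6. The mitotic kinase AURKB (-0.62 ± 0.10) and cyclin B, encoded by CCNB1 (-0.50 ± 0.07), fell, and HMMR rose (0.70 ± 0.08). Of 27 tested p53 targets and CDK inhibitors, 5 rose (18.5%) and 12 fell (44.4%), with a median of -0.19. MDM2, which degrades p53, was at 826, 880.2 and 895 in Par, 552, 511 and 634 in GemR siCont and 340.2, 332 and 306 in GemR siSTIM1 (-1.41 ± 0.10). The CDK inhibitor CDKN2B rose from 294 ± 24.03 to 881 ± 53.3 (1.58 ± 0.10).

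Of 23 tested hypoxia and glycolysis genes, 4 rose (17.4%) and 12 fell (52.2%), with a median of -0.32. LDHA, lactate dehydrogenase, was at 9059.7, 9668 and 8762 in Par, 8613, 7682 and 7720.0 in GemR siCont and 5034, 5223 and 4685 in GemR siSTIM1 (-0.88 ± 0.06), and hexokinase HK2 (-0.96 ± 0.08) fell too, while the peptide ADM rose (0.86 ± 0.09). Of 18 tested NRF2 targets and metallothioneins, 3 rose (16.7%) and 13 fell (72.2%), with a median of -0.46. MT1X, a metal-binding metallothionein with close copies, was at 305, 310.2 and 288, 421, 250.5 and 228 and 67.1, 95.6 and 68.5 in the same order (-1.97 ± 0.19), and FTL, the ferritin light chain, fell from 1714 ± 61.7 to 969.7 ± 42.5 (-0.82 ± 0.11). Of 20 tested ABC transporters, 7 rose and 5 fell, with a median of 0.12. ABCC3, an exporter of organic anions, was at 607, 635 and 659 in Par, 757, 909 and 892 in GemR siCont and 2234, 2225 and 2635 in GemR siSTIM1 (1.89 ± 0.08), and ABCB1, the multidrug exporter P-glycoprotein, fell from 30.6 ± 8.89 to 10.7 ± 3.66 (-1.44 ± 0.24).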
